A study of Homo sapiens with 5 samples.

Results

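The cell cycle and mitosis genes described here are 52 named cyclins, cyclin-dependent kinases (CDKs), mitotic genes and CDK inhibitors, chosen by gene symbol from textbook roles, with earlier results of these data known but with no measured value in the rule. Of the 52, 51 had a probe on the array under that symbol (70 probes in all) and 49 were bright enough to be tested, of 15053 genes tested and 19090 genes on the array. CDKN2C had no probe under its symbol, and BUB1B and PTTG1 lay below the filter on low readings. All 5 samples were MHCC97H cells, an established human hepatocellular carcinoma line, stably carrying a construct after puromycin selection for 1 week. The cells carried an empty vector (n = 2), or overexpressed ACOT12 (n = 2) or a mutant of ACOT12 named ACOT12m (n = 1). ACOT12 is a cytosolic thioesterase that splits acetyl-CoA into acetate and coenzyme A. The sources used here do not give the promoter of the construct, the residue changed in the mutant, or whether cells were pooled or clonal. The labels do not say whether replicates came from separate cultures, and the spread behind each p-value may therefore be technical.

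Progress through the cell cycle is driven by CDKs that become active when bound to cyclins. D-type cyclins with CDK4 or CDK6 and cyclin E with CDK2 phosphorylate the retinoblastoma protein, which frees E2F factors to transcribe genes for DNA synthesis. Cyclin B with CDK1 then starts mitosis, the spindle checkpoint holds chromosomes until they are attached, and ubiquitin ligation by the anaphase-promoting complex lets them separate. CDK inhibitors of the CIP/KIP and INK4 families brake these kinases. Many genes of mitosis are transcribed together late in the cycle, through promoter elements that include CCAAT boxes and the cell cycle homology region (CHR). Their transcripts are widely used as a measure of how many cells of a tumour are dividing.

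Total RNA was amplified, labelled with Cy5 and read on 5 one-colour arrays, whose deposited values are linear intensities with medians between 616 and 825 and means between 6804 and 6975. The array number limits the precision, and no detection flags were used. The ACOT12 probe read 59.2 and 18.0 with empty vector, 4733 and 4859 with ACOT12 and 4030 with the mutant, so the reading followed the labels; the probe reads the gene with and without the mutation. Of the hepatoma markers, AFP lay between the 73.0th and 75.9th percentile of its array in all samples, whereas ALB read 2771 and 2843 with empty vector, 1755 and 1209 with ACOT12 and 853 with the mutant. SERPINA1 went the other way, at 791 and 1030, 936 and 1211, and 1749 in the same order. APOB and TTR were lowest with the mutant, while the mutant readings of APOA1 and TF lay between those of empty vector. Among immune markers PTPRC, CD3E and LYZ lay at or below the 16.2th percentile, whereas CD3D and CD68 lay at or above the 81.9th. The summed intensity of the 5 fibroblast markers was 8634 and 6414 with empty vector, 8894 and 8473 with ACOT12 and 5134 with the mutant. Of these, COL1A1 read 3738 and 2288 with empty vector and 891 with the mutant. The mutant readings of LUM and COL1A2 lay between those of empty vector, that of DCN above them and that of PDGFRB below. The summed intensity of the 4 endothelial markers was 3874 and 3180, 3721 and 4291, and 2206 in the same order. Their part in the results below was not tested. In RNA of whole cultures, fewer dividing cells and less RNA per cell cannot be told apart.

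The cell cycle genes gave strong signals with every construct. Among the 49 tested members the median intensity was 12638 and 12498 with empty vector, 12386 and 12937 with ACOT12 and 11601 with the mutant. The median member lay between the 88.4th and the 89.4th percentile of all probes of its array, and 39 or 40 members exceeded the 75th percentile on each array. Here the brightest probe of each member past the filter was ranked among all probes, dimmer ones included, which favours the members. Their replicates were close, with a median absolute log2 difference between replicates of 0.10 for empty vector and 0.13 for ACOT12. The plot of all readings shows most members as tight clusters of 5 points. Probe brightness also depends on the probe, so readings of different genes are not set against each other.

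**Figure D1:**
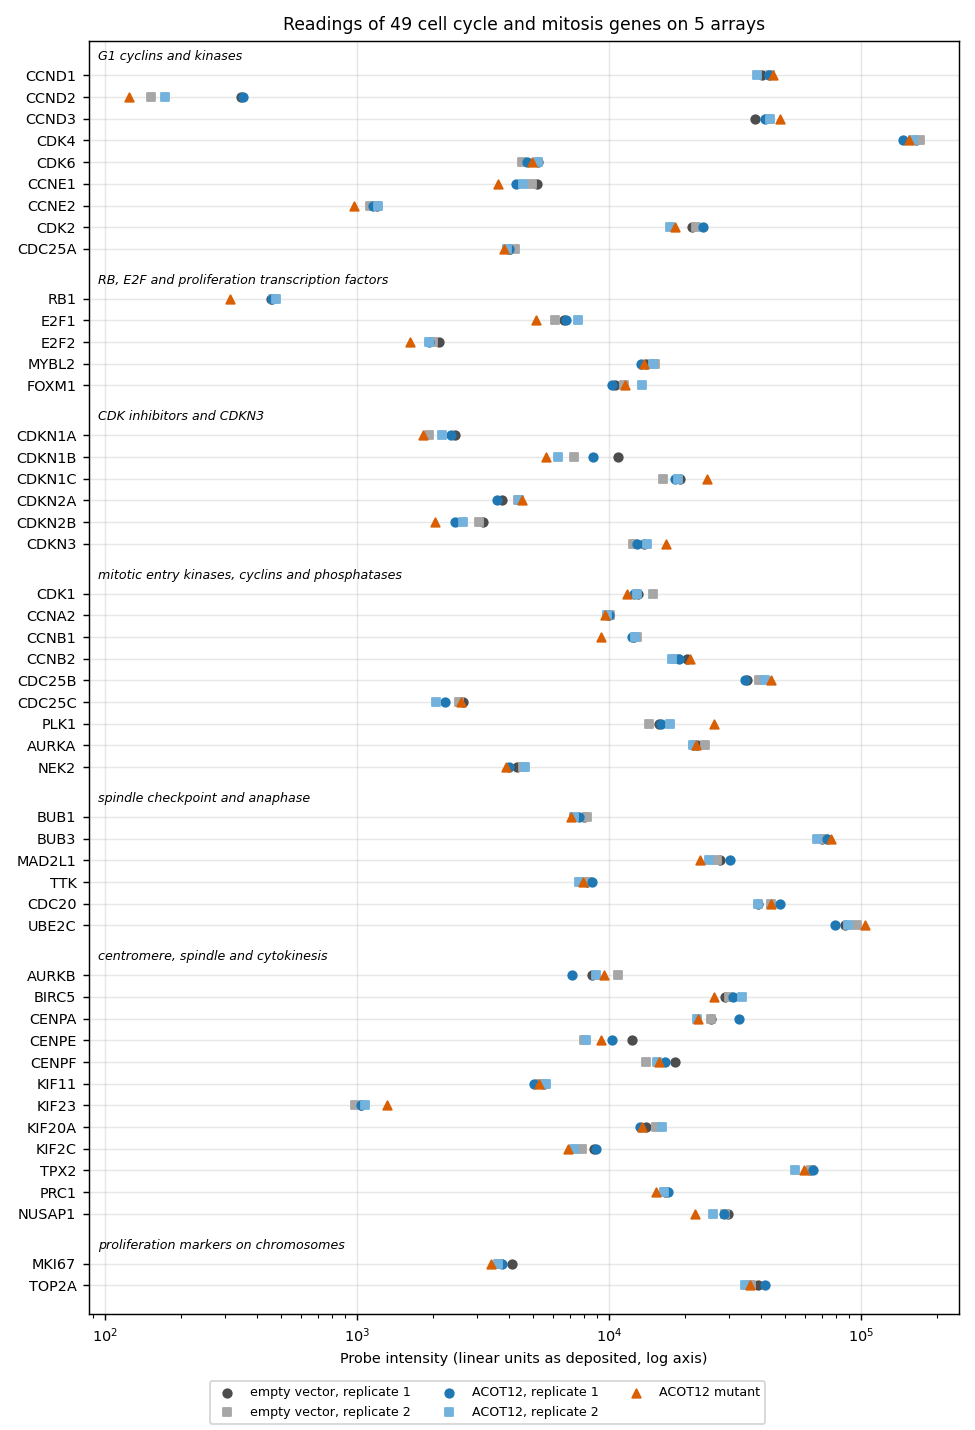
Intensity of each of the 49 tested members (rows, by role) on each of the 5 arrays; the horizontal axis is logarithmic and in the deposited linear units. For most genes the 5 points lie close together, while the mutant array stands apart for PLK1 and CCNB1 and the replicates stand apart for CCND2 and CDKN1B.

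ACOT12 was first set against empty vector. No member differed past the threshold (limma, adjusted p under 0.05; the lowest was 0.994), and 0 of 49 had an unadjusted p under 0.05, where 3% of all genes tested did (2.55% higher, 0.452% lower and 0% after adjustment). In the brightest of 4 equal groups of genes, which held 33 of the 49 members, that share was only 0.611%. The median log2 difference over the members was −0.03, against 0.05 for all genes tested, and single members lay between −0.29 (CDKN2B) and 0.17 (E2F1). Of the 49, 21 read higher and 28 lower, beside 61.4% and 38.6% of all genes. For 40 of the 49, the group difference was smaller than the larger of the replicate differences. The unadjusted 95% interval of the difference lay within 1 log2 unit of 0 for 48 members, CCND2 being the exception, and within 0.5 for 34. Of the 15053 genes tested, the interval lay within these limits for 13491 and 5084. The intervals are unadjusted, and if the replicates are technical they leave out variation between cultures. With that limit they bound the changes at that size, and smaller changes were not resolved by 2 arrays a group. Both ACOT12 arrays lay above both empty vector arrays for 3 members (20.2% of all genes) and below both for 10 (11.5% of all genes), a total of 26.5% of members beside 31.7% of all genes.

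The mutant array was then set against empty vector. Again 0 of 49 members passed (lowest adjusted p = 0.105, for PLK1), where 0.0332% of all genes did. At an unadjusted p under 0.05 PLK1 read higher, and CDKN2B, RB1, CCNE1 and CCNB1 read lower. These 5 members are 10.2% of the 49, beside 20.7% of all genes, 3.69% higher and 17% lower. Without empty vector replicate 1 only 1 member, PLK1, had such a p. The split of 1 higher and 4 lower became 4 higher and 1 lower after centring the array medians and 3 and 2 after quantile normalization. The mutant array lay outside both empty vector arrays for 43 members, 12 above (29.6% of all genes) and 31 below (54.7%), a total of 87.8% beside 84.3% of all genes. The median difference was −0.09 over the members and −0.13 over all genes tested, with 14 members higher and 35 lower (36.8% and 63.2% of all genes). The interval lay within 1 log2 unit of 0 for 45 members and within 0.5 for 2, so this comparison with 1 array bounds changes less closely.

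ACOT12 and its mutant were also compared directly, which is the test of whether their effects differ. Here 0 of 49 members passed in either direction (lowest adjusted p = 0.102, for PLK1), beside 9.23% of all genes, with 9.21% higher and 0.0199% lower with ACOT12. At an unadjusted p under 0.05 RB1 and E2F1 read higher with ACOT12 and PLK1 read lower, which is 6.12% of the members against 22.6% of all genes (21% higher and 1.56% lower). With centred array medians 10 members had such a p, all lower with ACOT12. The number of genes passing, 1389, fell to 0 when either ACOT12 array was left out, and the member count was then also 0. Both ACOT12 arrays lay above the mutant for 21 members (51.1% of all genes) and below it for 14 (22.5%). The median difference was 0.04 over the members and 0.13 over all genes, with 31 members higher and 18 lower (65.7% and 34.3% of all genes). All 3 comparisons share arrays, and the mutant stands on 1 array with no replicate check.

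**Figure D2:**
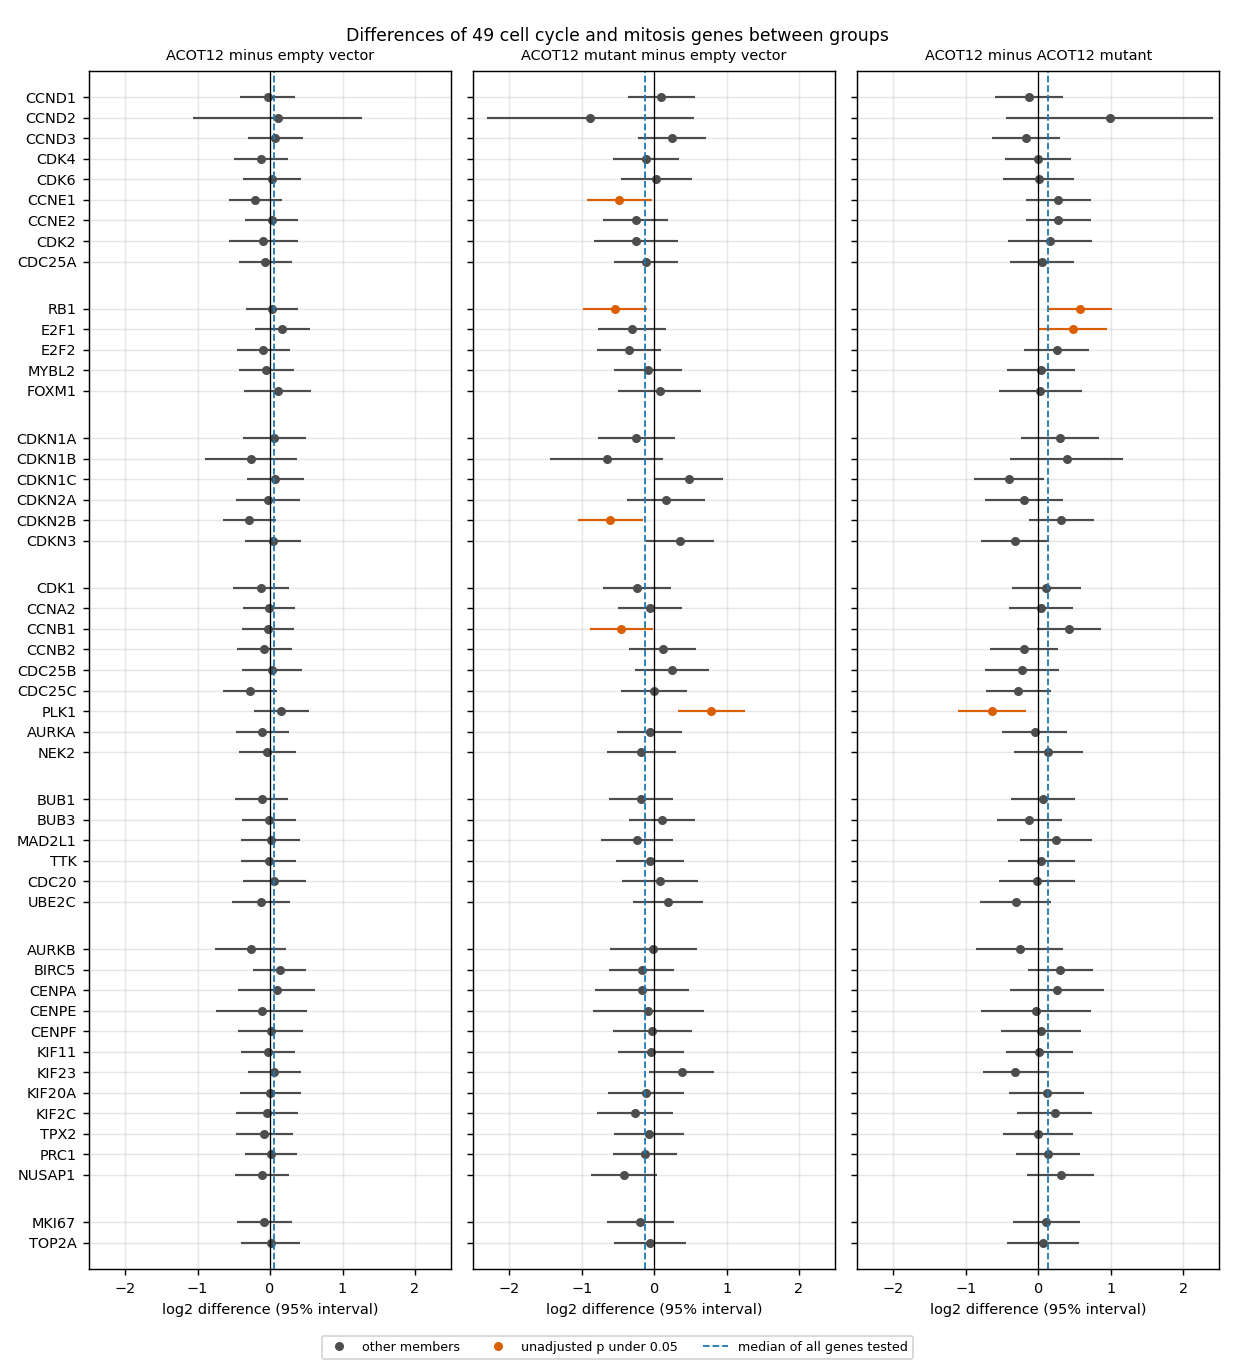
Log2 difference of each of the 49 tested members (rows, in the order of roles used for the readings) with its unadjusted 95% interval from limma, in 3 panels for the 3 comparisons; the dashed line is the median of all genes tested and orange marks an unadjusted p under 0.05. No member is marked for ACOT12 against empty vector, 5 are marked for the mutant against empty vector and 3 for ACOT12 against the mutant.

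Among the G1 cyclins and kinases, which drive the passage into DNA synthesis, 9 of 9 were tested and none passed in any comparison. CCNE1, the cyclin E1 partner of CDK2, read 5191 and 4962 with empty vector, 4263 and 4548 with ACOT12 and 3631 with the mutant. The 3 groups did not overlap for CCNE1, and the mutant was the lowest. Its log2 difference from empty vector was −0.20 ± 0.15 (SE) with ACOT12 (unadjusted 0.220, adjusted p = 0.994) and −0.48 ± 0.18 with the mutant (unadjusted 0.0390, adjusted p = 0.214). CCNE2, the second E-type cyclin, read 1200 and 1131, 1158 and 1210, and 976 in the same order. The mutant reading of this probe lay below the others, and its difference from empty vector was −0.25 ± 0.18. By percentile within the array the mutant was not lowest, at 56.44 beside 55.99 and 56.48 with ACOT12. The second CCNE2 probe read 654 and 641, 655 and 593, and 659, with the mutant the highest (0.026 from empty vector in the fit over all probes). CDK4, the kinase of the D-type cyclins, read 165535 and 171528 with empty vector, 147491 and 161849 with ACOT12 and 155422 with the mutant, with all ACOT12 and mutant readings below those of empty vector by small amounts (−0.13 ± 0.15 and −0.12 ± 0.19). On the second CDK4 probe, at 75544 and 78126, 67786 and 79092, and 67251, ACOT12 and empty vector overlapped. CCND1, the D-type cyclin often raised in liver cancer, differed by −0.03 ± 0.16 with ACOT12 and 0.10 ± 0.19 with the mutant.

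CCND2, the dimmest tested member, showed the largest spread between replicates. Its probe read 347 and 152 with empty vector, 353 and 173 with ACOT12 and 124 with the mutant, so that the first replicate was about as high in both groups, empty vector and ACOT12 overlapped, and the mutant lay below both. By percentile within the array the mutant, at 25.44, lay above ACOT12 replicate 2, at 22.56. The replicate difference of 1.19 log2 units in empty vector exceeded the group differences of 0.10 ± 0.48 with ACOT12 and −0.88 ± 0.58 with the mutant (adjusted p = 0.999 and 0.450). Both depended on 1 array. The ACOT12 difference was 0.70 without empty vector replicate 1 and −0.49 without empty vector replicate 2, and turned negative after centring (−0.026), quantile normalization (−0.22) and cyclic loess (−0.22). The mutant difference was −1.48 without empty vector replicate 2 (adjusted p = 0.0382) and −0.29 without empty vector replicate 1 (adjusted p = 0.859). CCND3 (0.07 ± 0.16 and 0.24 ± 0.19), CDK6 (0.03 ± 0.16 and 0.03 ± 0.20), CDK2 (−0.09 ± 0.19 and −0.25 ± 0.24) and the phosphatase CDC25A (−0.06 ± 0.15 and −0.12 ± 0.18) gave differences below 0.30 with either construct.

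The intensity of the retinoblastoma gene RB1, whose protein holds E2F factors in check, separated the mutant from the other 4 arrays, while its rank hardly did. It read 456 and 463 with empty vector, 462 and 476 with ACOT12 and 315 with the mutant. Empty vector and ACOT12 thus lay close together while the mutant lay below all of them. The log2 difference from empty vector was 0.03 ± 0.15 with ACOT12 and −0.54 ± 0.18 with the mutant (unadjusted 0.0234, adjusted p = 0.171), and ACOT12 read 0.57 ± 0.18 above the mutant (unadjusted 0.0192, adjusted p = 0.118). Its percentile within the array was 40.55 and 43.6 with empty vector, 40.13 and 40.49 with ACOT12 and 40.01 with the mutant. RB1 is a dim member, and dim genes as a whole read low on the mutant array, as given below.

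E2F1, an activating E2F factor, read 6613 and 6107 with empty vector, 6757 and 7571 with ACOT12 and 5143 with the mutant. The ACOT12 readings were the highest and the mutant reading the lowest, with a direct difference of 0.48 ± 0.19 (unadjusted 0.0486, adjusted p = 0.217). E2F2, another activating factor, read 2118 and 2003, 1927 and 1938, and 1623, and its difference of the mutant from empty vector was −0.34 ± 0.18. The mitotic regulators FOXM1 and MYBL2, transcription factors of late cell cycle genes, stayed near empty vector. FOXM1 differed by 0.10 ± 0.19 with ACOT12 and 0.07 ± 0.23 with the mutant, and MYBL2 by −0.05 ± 0.16 and −0.09 ± 0.19.

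The CDK inhibitors and CDKN3 read 3 higher and 3 lower on the mutant array than with empty vector, and 0 of 6 passed. CDKN2B, encoding p15, an INK4 inhibitor of CDK4 and CDK6, read 3162 and 3043 with empty vector, 2449 and 2634 with ACOT12 and 2039 with the mutant. The 3 groups did not overlap for this gene. The log2 difference from empty vector was −0.29 ± 0.15 with ACOT12 (unadjusted 0.103, adjusted p = 0.994), the smallest p of any member there, and −0.61 ± 0.18 with the mutant (unadjusted 0.0167, adjusted p = 0.151). The second, dimmer CDKN2B probe read 444 and 475, 373 and 457, and 301, and gave −0.15 and −0.61 in the fit over all probes. Both probes thus had their lowest intensity on the mutant array, and the ACOT12 and empty vector readings of the second probe overlapped. By percentile within the array the first probe was also lowest with the mutant, at 67.22. The second was not, at 39.5 beside 36.57 and 39.72 with ACOT12. CDKN2A, encoding the INK4 inhibitor p16 and the separate protein ARF, differed by −0.03 ± 0.18 with ACOT12 and 0.16 ± 0.22 with the mutant.

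CDKN1C, encoding the CIP/KIP inhibitor p57, read 19102 and 16355 with empty vector, 18367 and 18745 with ACOT12 and 24585 with the mutant. The mutant array was the highest, at 0.48 ± 0.20 log2 units above empty vector (unadjusted 0.0515, adjusted p = 0.246) and 0.41 ± 0.20 above ACOT12, which appears as −0.41 for ACOT12 minus mutant (adjusted p = 0.310). After centring the array medians that last difference was −0.82 and passed (adjusted p = 0.0496). CDKN1B, encoding p27, a CIP/KIP inhibitor linked to quiescence, read 10877 and 7252 with empty vector, 8680 and 6302 with ACOT12 and 5636 with the mutant. Its replicates differed by 0.58 and 0.46 log2 units, ACOT12 and empty vector overlapped with the mutant below both, and the difference was −0.26 ± 0.26 with ACOT12 and −0.66 ± 0.32 with the mutant (adjusted p = 0.999 and 0.314). The ACOT12 difference turned to 0.029 without empty vector replicate 1. CDKN1A, encoding p21, the inhibitor induced by p53, read 2443 and 1940, 2357 and 2176, and 1837, with differences of 0.06 ± 0.18 and −0.24 ± 0.22. Its second probe read 1949 and 1510, 1846 and 1984, and 1226, again lowest with the mutant. By percentile within the array the first CDKN1A probe was not lowest there, at 65.69 beside 65.57 with empty vector replicate 2. CDKN3, a phosphatase that acts on CDKs and is itself expressed in dividing cells, differed by 0.04 ± 0.16 and 0.36 ± 0.19.

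**Figure D3:**
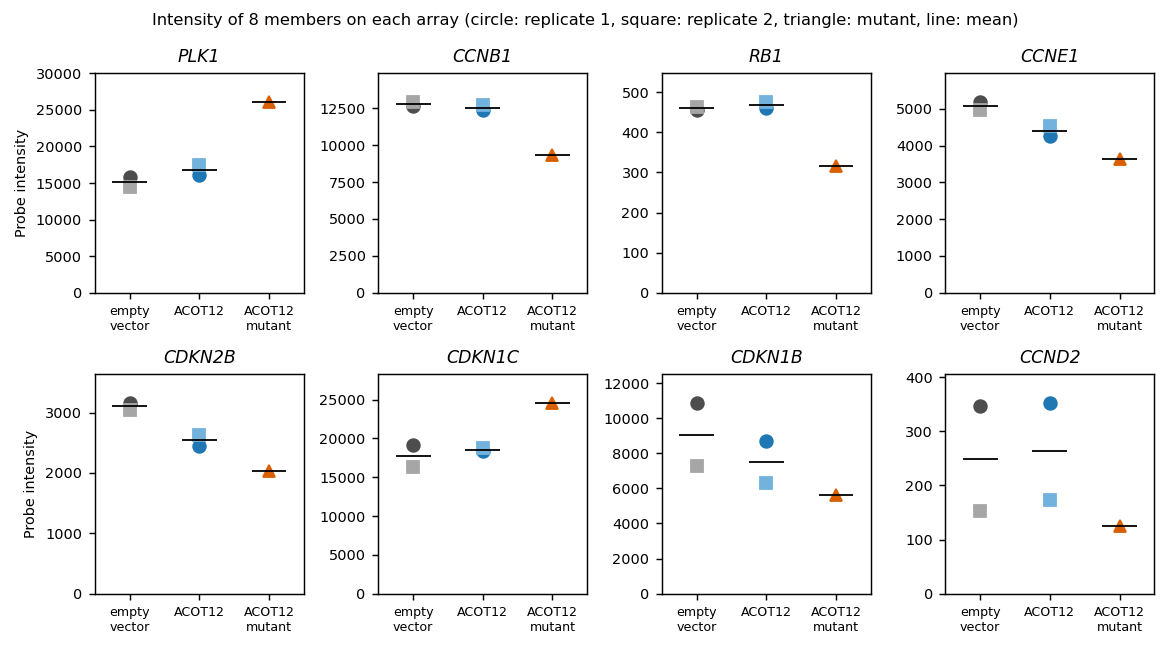
Probe intensity (linear, axis from 0) of 8 members on each array, by group; circles are replicate 1, squares replicate 2, the triangle is the mutant array and the line is the group mean, with no error bars because groups hold 1 or 2 arrays. PLK1 and CDKN1C are highest and CCNB1, RB1, CCNE1 and CDKN2B lowest with the mutant, whereas CDKN1B and CCND2 are spread as widely between replicates as between groups.

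The members that trigger mitosis included the one with the smallest p, PLK1. Polo-like kinase 1 is needed for mitotic entry, spindle assembly and cytokinesis. Its single probe read 15810 and 14419 with empty vector, 16073 and 17532 with ACOT12 and 26103 with the mutant. The mutant reading exceeded all 4 others, and the ACOT12 readings lay just above those of empty vector. The log2 difference from empty vector was 0.15 ± 0.16 with ACOT12 (adjusted p = 0.999) and 0.79 ± 0.19 with the mutant (95% interval 0.32 to 1.26, unadjusted 0.00609, adjusted p = 0.105). ACOT12 minus mutant was −0.64 ± 0.19 (unadjusted 0.0156, adjusted p = 0.102). PLK1 passed in both mutant comparisons after centring the array medians (1.07 and −1.05, adjusted p = 0.00847 and 0.00792) and with a variance that follows brightness (adjusted p = 0.0391 and 0.0378), and in neither under the other settings tried, where adjusted p lay between 0.0716 and 0.265.

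CCNB1, cyclin B1, the partner of CDK1 in mitosis, read 12638 and 12931 with empty vector, 12386 and 12698 with ACOT12 and 9340 with the mutant. The first 4 readings lay close together and the mutant below them. The log2 difference from empty vector was −0.03 ± 0.15 with ACOT12 and −0.45 ± 0.18 with the mutant (unadjusted 0.0456, adjusted p = 0.230). PLK1 and CCNB1, both genes of mitotic entry, therefore read in opposite directions on the same mutant array. CCNB2, the second B-type cyclin, differed by −0.08 ± 0.15 and 0.12 ± 0.19, and CDK1 itself by −0.13 ± 0.16 and −0.24 ± 0.19. CDC25C, a phosphatase that activates CDK1, read 2632 and 2552 with empty vector, 2230 and 2056 with ACOT12 and 2589 with the mutant. It was lower on both ACOT12 arrays than on any other array, at −0.28 ± 0.15 from empty vector (unadjusted 0.117, adjusted p = 0.994), while the mutant differed by −0.0017 ± 0.18. CCNA2 (−0.02 ± 0.15 and −0.06 ± 0.18), AURKA (−0.11 ± 0.15 and −0.06 ± 0.18), NEK2 (−0.04 ± 0.16 and −0.18 ± 0.20) and CDC25B (0.02 ± 0.17 and 0.24 ± 0.21) gave smaller differences.

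The promoters of 4 mitotic genes are shown because these genes had the smallest p among mitotic members in the mutant comparison, PLK1 and KIF23 reading higher and CCNB1 and NUSAP1 lower. Each is the 200 bases before the RefSeq gene start on the plus strand of GRCh38.p14, 5′ to 3′, and ends at the base before the annotated start. The stretches are chr16:23678689-23678888 for PLK1, chr15:69414149-69414348 for KIF23, chr5:69166950-69167149 for CCNB1 and chr15:41332681-41332880 for NUSAP1. Capitals mark CCAAT boxes (CCAAT, or ATTGG on the other strand) and the CHR letters TTTGAA or TTCGAA, searched on both strands.
PLK1: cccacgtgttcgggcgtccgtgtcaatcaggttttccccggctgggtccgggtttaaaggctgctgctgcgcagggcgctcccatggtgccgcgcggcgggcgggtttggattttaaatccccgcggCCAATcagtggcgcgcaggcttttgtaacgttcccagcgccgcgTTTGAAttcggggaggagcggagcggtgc
KIF23: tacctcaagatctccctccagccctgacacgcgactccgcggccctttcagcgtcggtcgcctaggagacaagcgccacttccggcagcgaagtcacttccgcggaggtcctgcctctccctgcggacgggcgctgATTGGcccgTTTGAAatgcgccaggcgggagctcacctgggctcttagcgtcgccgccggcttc
CCNB1: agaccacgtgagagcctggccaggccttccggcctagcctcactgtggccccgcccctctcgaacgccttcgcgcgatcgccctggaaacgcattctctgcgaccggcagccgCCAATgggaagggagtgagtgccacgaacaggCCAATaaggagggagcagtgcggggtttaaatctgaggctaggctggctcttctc
NUSAP1: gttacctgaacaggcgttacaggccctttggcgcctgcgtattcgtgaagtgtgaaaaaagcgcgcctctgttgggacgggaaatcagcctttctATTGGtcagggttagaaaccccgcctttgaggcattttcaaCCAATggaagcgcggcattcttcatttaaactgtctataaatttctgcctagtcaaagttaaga

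In these windows PLK1 and KIF23 hold 1 CCAAT box and 1 CHR match each, and CCNB1 and NUSAP1 hold 2 CCAAT boxes and no CHR match. Other tested members with a CHR match in the 250 bases read in both directions on the mutant array. CDK1, MKI67, CENPA, PRC1, TOP2A and KIF11 read lower than empty vector, and CCNB2, CDC25B and CDKN3 higher. The mutant readings of CDC25C and CDC20 lay between those of empty vector. The second CENPA probe read higher with the mutant, by 0.16 in the fit over all probes. A link between these letters and the direction of the readings was not tested. The RefSeq promoter table held 55 promoters of 40 of the 52 members, of which 34 belong to 25 mitotic genes. In the 250 bases before the start, 79.4% of these 34 promoters held CCAAT, 41.2% held a CHR match and 38.2% held both. The shares over all 35116 promoters of the same length were 32%, 14.3% and 5.05%. Of the 21 promoters of the G1, transcription factor and inhibitor groups 33.3% held CCAAT and 4.76% a CHR match. A match of letters is a description and not a binding site, and several promoters belong to the same gene.

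Genes of the spindle checkpoint and of anaphase stayed close to empty vector, and none of the 6 tested passed or had an unadjusted p under 0.05 in any comparison. CDC20, the activator of the anaphase-promoting complex, read 39165 and 44179 with empty vector, 47917 and 39224 with ACOT12 and 43999 with the mutant, so that all groups overlapped. UBE2C, the ubiquitin-conjugating enzyme of that complex, differed by −0.12 ± 0.16 with ACOT12 and 0.19 ± 0.20 with the mutant. Its 3 probes disagreed on the mutant array, at 0.19, −0.24 and −0.42 from empty vector in the fit over all probes. The checkpoint kinases BUB1 (−0.12 ± 0.15 and −0.19 ± 0.18) and TTK (−0.02 ± 0.15 and −0.06 ± 0.19) and the checkpoint proteins BUB3 (−0.02 ± 0.15 and 0.11 ± 0.19) and MAD2L1 (0.01 ± 0.17 and −0.24 ± 0.20) gave values within 0.25 of 0 on their brightest probes. On the second probes of BUB3 and TTK the mutant differed from empty vector by −0.28 and −0.30 in the fit over all probes.

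The checkpoint gene BUB1B and the securin gene PTTG1 were dim. PTTG1 read 108 and 83.3 with empty vector, 122 and 118 with ACOT12 and 94.96 with the mutant. BUB1B read −3.06 and −11.3 with empty vector, 14.4 and 25.4 with ACOT12 and 15.5 with the mutant, the first 2 being below 0 and set to 0. Without the filter BUB1B passed as higher with ACOT12 (4.33, adjusted p = 0.00947) and with the mutant (4.05, adjusted p = 0.0308). All 5 readings lay at or below the 1.09th percentile of their arrays, so the size is set by the floor and by the offset before the logarithm and is not resolved.

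Centromere, spindle and cytokinesis genes gave no call among 12 tested, and on the mutant array 11 of the 12 read lower than empty vector, as 63.2% of all genes did. NUSAP1, a microtubule-binding spindle protein, read 29588 and 28952 with empty vector, 28571 and 25852 with ACOT12 and 21969 with the mutant. The groups did not overlap, and the differences were −0.11 ± 0.15 and −0.41 ± 0.19 (mutant unadjusted 0.0684, adjusted p = 0.282). KIF23, a kinesin of the central spindle in cytokinesis, was the exception and read 1042 and 988, 1034 and 1079, and 1321. Here the mutant array lay above the other 4, at 0.38 ± 0.18 from empty vector (unadjusted 0.0821, adjusted p = 0.306). AURKB, the kinase of the chromosomal passenger complex, read 8562 and 10843 with empty vector, 7159 and 8935 with ACOT12 and 9559 with the mutant. Empty vector overlapped both other groups, and both ACOT12 readings lay below the mutant. The difference of ACOT12 from empty vector was −0.27 ± 0.20, smaller than the replicate difference of 0.34. BIRC5, survivin, a partner of AURKB, read 29011 and 30121, 31184 and 33700, and 26228, with differences of 0.13 ± 0.15 and −0.17 ± 0.18.

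The centromere protein CENPE was another member with unlike replicates, at 12323 and 7942 with empty vector, 10283 and 8104 with ACOT12 and 9338 with the mutant. Its groups overlapped, and its differences were −0.12 ± 0.25 and −0.08 ± 0.31. CENPA, the centromeric histone variant, read 32710 and 22294 on the ACOT12 arrays beside 25350 and 25364 with empty vector, so that its ACOT12 replicates lay on either side. TPX2 (−0.08 ± 0.16 and −0.08 ± 0.20), which targets AURKA to the spindle, PRC1 (0.01 ± 0.15 and −0.12 ± 0.18), which bundles the central spindle, and the kinesins KIF11 (−0.03 ± 0.15 and −0.05 ± 0.19), KIF20A (0.00 ± 0.17 and −0.11 ± 0.21) and KIF2C (−0.04 ± 0.17 and −0.27 ± 0.21) differed by less than 0.30. CENPF differed by 0.01 ± 0.18 and −0.02 ± 0.22. The proliferation marker MKI67 read 4133 and 3675 with empty vector, 3760 and 3617 with ACOT12 and 3417 with the mutant. Its differences of −0.08 ± 0.15 and −0.19 ± 0.19 (adjusted p = 0.999 and 0.622) have 95% intervals of −0.46 to 0.30 and −0.65 to 0.28. TOP2A, the topoisomerase of dividing cells, differed by 0.01 ± 0.17 and −0.06 ± 0.20.

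Of the 51 members on the array 16 had more than 1 probe. For ACOT12 against empty vector the probes of 7 members had 1 sign and those of 9 had both, and for the mutant 10 and 6 (BIRC5, BUB3, CCNA2, CCNE2, CENPA and UBE2C). No member had probes that differed in sign with both sizes over 0.5. BIRC5 gave −0.17, −0.25 and 0.26 for the mutant against empty vector. A second CDK1 probe read 30.6 and 31.5 with empty vector, 43.2 and 51.7 with ACOT12 and 31.0 with the mutant, near the floor, beside a first probe of 11796 to 14911. Which transcripts these probes detect is not given in the sources used here.

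Brightness moved with the difference between arrays, and the members are bright. Their median mean log2 intensity was 13.54 against 11 for all genes tested, and 33 of the 49 fell in the brightest of 4 equal groups of genes. In the dimmest group the median gene read 0.26 log2 units higher with ACOT12 and −0.31 with the mutant than with empty vector. In the brightest group these medians were −0.03 and −0.03, and the members there had medians of −0.02 and −0.06. The 2 members of the dimmest group, CCND2 and RB1, together had a median of 0.07 with ACOT12 and −0.71 with the mutant. The share of genes passing in ACOT12 against mutant fell from 17.96% in the dimmest to 0.904% in the brightest group, so the share over all genes is not that of genes as bright as the members. For ACOT12 against empty vector the brightest group held 0.611% of its genes at an unadjusted p under 0.05, beside 0 of 49 members. It held 6.245% for the mutant against empty vector and 3.906% for ACOT12 against mutant. The members' shares of 10.2% and 6.12% in these mutant comparisons lay below the 20.7% and 22.6% of all genes and above those of the brightest group. They are taken over all 49 members and not over the 33 in that group, so they do not match its shares like for like. Of the 33, only PLK1 and CCNB1 had such a p for the mutant against empty vector, beside the 6.245%. For ACOT12 against mutant only PLK1 did, beside the 3.906%. The lower share than over all genes is therefore not read as a trait of the members. The part of brightness in the readings of CCND2 and RB1 was not tested.

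**Figure D4:**
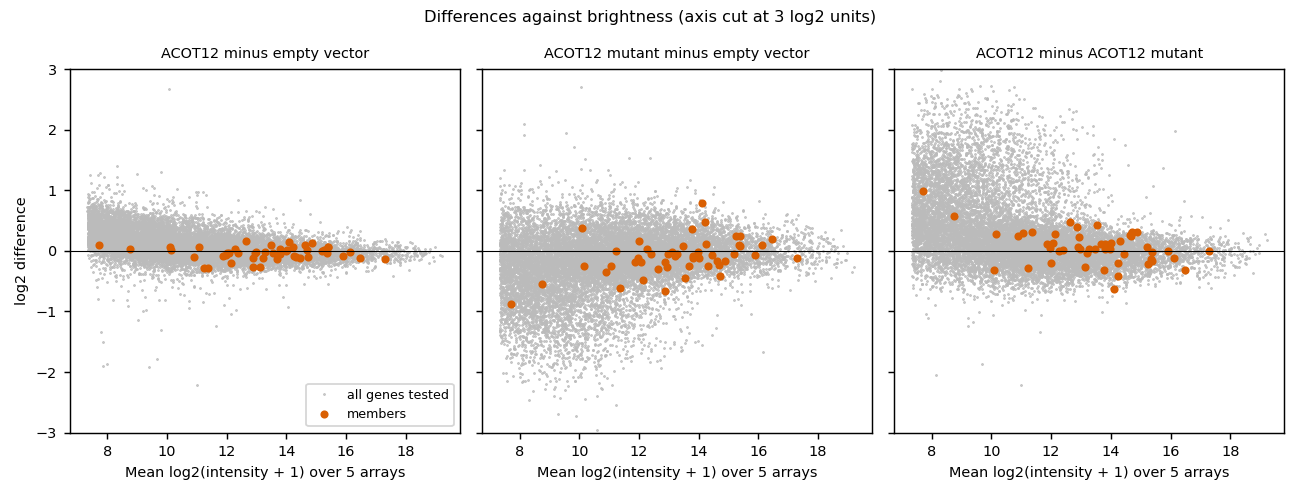
Log2 difference (vertical axis, cut at 3 log2 units, leaving out 5, 8 and 10 genes in the 3 panels) against mean log2 intensity for all 15053 genes tested (grey) and the 49 members (orange). Members lie mostly at the bright end, where both clouds are narrow, and the dim end tilts upward for ACOT12 and downward for the mutant against empty vector.

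Quantile and cyclic loess normalization moved the member medians less than the medians of all genes, while centring moved both alike. Quantile normalization gave member medians of −0.04, −0.08 and 0.02 in the order ACOT12 against empty vector, mutant against empty vector and ACOT12 against mutant. Centring the array medians, which moved the median of all genes to −0.08, 0.16 and −0.28, gave −0.16, 0.20 and −0.37. Relative to the median of all genes the members stood at −0.08, 0.04 and −0.09 as deposited, and at −0.03, −0.08 and 0.06 after quantile normalization. The sign of that relative shift thus turned with scaling in both mutant comparisons, and no direction of the list is given for them. Over all genes, calls for ACOT12 against mutant were 1386 higher and 3 lower as deposited, 1339 and 683 after centring, 960 and 83 after cyclic loess, and 5 and 0 after quantile normalization.

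**Figure D5:**
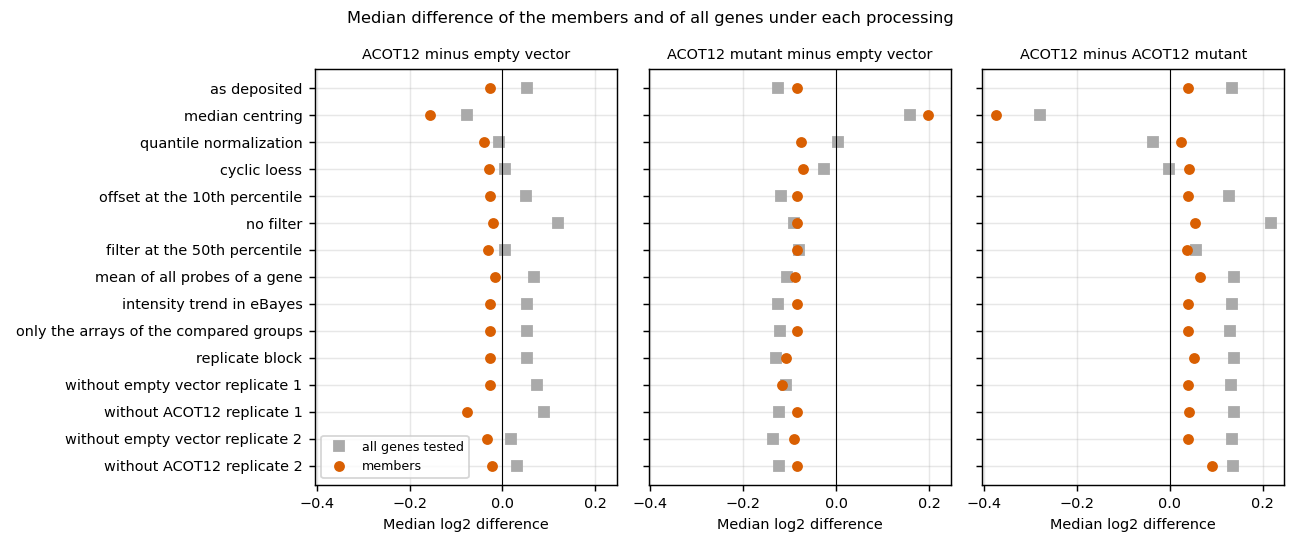
Median log2 difference of the members (orange circles) and of all genes tested (grey squares) in the 3 comparisons under each processing, with no error bars. Member medians stay within 0.12 of 0 in every row but that of median centring, where they are −0.16, 0.20 and −0.37.

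Other genes of the same pathway were described from a list of 74 further cell cycle genes, all on the array and 72 tested. These include anaphase-promoting complex subunits, kinetochore proteins, cohesins and condensins. For ACOT12 against empty vector 0 passed and 0 had an unadjusted p under 0.05, with a median of −0.06. For the mutant 0 passed, 1 read higher and 6 lower at an unadjusted p under 0.05 (3.69% and 17% of all genes), and the median was −0.09. WEE1, the kinase that restrains CDK1, read 7785 and 8364 with empty vector, 6805 and 6750 with ACOT12 and 5424 with the mutant. Its groups did not overlap, at −0.25 ± 0.15 and −0.57 ± 0.18 from empty vector (adjusted p = 0.994 and 0.161). CDC26, a small subunit of the anaphase-promoting complex, read 953 and 1074, 1005 and 1428, and 1907.

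In the direct comparison 1 of the 72 passed, ANAPC1, the largest subunit of the anaphase-promoting complex, as higher with ACOT12 than with the mutant. It read 4553 and 3353 with empty vector, 4563 and 4585 with ACOT12 and 2121 with the mutant, a difference of 1.11 ± 0.24 (adjusted p = 0.0442). Of 13 genes of the p53 axis, which acts on CDKN1A, 10 were tested. PLK3, a polo-like kinase of the stress response, passed as higher with ACOT12 than with the mutant by 0.88 ± 0.19 (adjusted p = 0.0441), at 3120 and 3141 with empty vector, 3029 and 2681 with ACOT12 and 1544 with the mutant. These 2 calls stand beside 9.21% of all genes, and 0 genes passed when either ACOT12 array was left out. MDM2, the ubiquitin ligase of p53, read 268 and 262, 310 and 363, and 359, with differences from empty vector of 0.34 ± 0.16 with ACOT12 and 0.44 ± 0.20 with the mutant (adjusted p = 0.994 and 0.282).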

How the data were processed

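Probe intensities of 5 one-colour arrays were used as deposited by the authors, on a linear scale, with the unit read from the values. RNA was amplified and labelled with Cy5 per the labels' protocols; the sources used here do not name the scanner, background correction or scaling. Samples were grouped by title. Of 28264 probes 25893 had 1 gene symbol on the platform annotation, 0 several and 2371 none. Readings below 0 were set to 0, 1 was added and log2 taken, so differences are on the log2(intensity + 1) scale. For genes with several probes the brightest on average was used, and genes with a mean below the 25th percentile of probes (7.34) were left out. A model over all 5 arrays, without covariates, was fitted with limma 3.58.1 (lmFit, eBayes) in R 4.3.3, with 2 residual and 3.96 prior degrees of freedom, two-sided, and Benjamini-Hochberg adjustment over 15053 genes. The single mutant array borrows its variance from the other 2 groups. ± is limma's SE; percentiles are ranks among all probes of an array. The fit was checked on simulated data. Members and lists were chosen with earlier results of these data known. Members may all be named; full statistics went to the 8 smallest p per comparison, the CDK inhibitors and members that passed, and for the other pathway lists to up to 4 genes with the smallest p. CCND2, CENPE and other members given in full beyond these were picked after their values were seen. Alternatives were 3 scalings, another offset, 2 filters, probe averaging, a variance trend, compared groups alone, a replicate block and leaving out arrays. Promoter sequences are from RefSeq (GRCh38.p14); no array coordinates were used.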

Additional observations from a re-analysis of the deposited data

How the results depend on the processing

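Calls among the members were 0 in all 3 comparisons as deposited. The numbers called elsewhere were 1 for the mutant with centred medians (PLK1), a variance trend (PLK1) and no filter (BUB1B), 1 for ACOT12 against empty vector with no filter (BUB1B), and 2 (PLK1 and CDKN1C) and 1 (PLK1) for ACOT12 against mutant with centring and with the trend. Leaving out an array gave 0 to 1 members for the mutant against empty vector and 0 in both other comparisons. Member medians moved with centring only, to −0.16, 0.20 and −0.37.

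Replicates share only a number in the labels. Deviations of same-numbered arrays correlated at 0.16 over 15053 genes and 0.65 over 49 members, a hint from the data and not from the design. With the replicate number as a block 2 members were called lower with the mutant than with empty vector (CCND2 at −1.44 and CDKN1B at −0.92) and 1 higher with ACOT12 than with the mutant (CCND2 at 1.54, adjusted p = 0.00501), and 1, 1635 and 2485 genes were called over all.

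Over all genes, calls for ACOT12 against empty vector were 0 as deposited, 45 with centring, 2 with quantile normalization, 2 with cyclic loess, 1 with an offset of 57.2, 192 with no filter, 8 with averaged probes, 1 with the trend and 0 to 5 with an array left out. For the mutant against empty vector they were 5 as deposited and 1446, 8, 187, 8 and 150 in the same order. They were 141 with a filter at the 50th percentile, 11 with averaged probes, 483 with the trend, 0 with the compared groups alone and 0 to 2023 with an array left out. For ACOT12 against mutant 1389 became 2022 with centring, 5 with quantile normalization, 1 with no filter, 638 with the stricter filter, 2273 with the compared groups alone and 0 to 2379 with an array left out. The causes were not tested. Of 333 values under alternatives of the 8 members with the smallest p in each comparison, 2 changed sign: CDKN1B for ACOT12 against empty vector (−0.56 without empty vector replicate 2, 0.029 without empty vector replicate 1) and CDKN2B for ACOT12 against mutant (−0.10 with centring). The intervals, not the number of genes, limit what can be said of single members, and readings near the floor have no resolved size.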
